A study of Mus musculus with 8 samples.

Results

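The genes described here are 10 Toll-like receptors and adaptors, taken by name from a table of 23282 gene lines: Tlr1, Tlr2, Tlr3, Tlr4, Tlr5, Tlr7, Tlr9, Cd14, Myd88 and Ticam1. Each name matched 1 line. They were measured in intestinal tissue of wild-type C57BL/6 mice, in 4 groups of 2 libraries. ExDSS mice received 1 mg of bovine colostrum exosomes, which are small membrane vesicles from milk, by gavage each day for 3 weeks and then 3% (w/v) dextran sodium sulfate (DSS) in their water for 6 days. Ex mice received the exosomes and no DSS, PC mice received buffer and then DSS, and NC mice received buffer and no DSS. DSS damages the epithelial lining of the gut and is a common way to provoke colitis in mice. The comparisons ask how DSS, the exosomes and the exosomes before DSS bear on the RNA levels of these genes. The labels give neither gut region, sex nor age. They also do not state whether both libraries of a group come from different mice; the p-values then reflect the spread among these libraries alone, and that spread may be technical.

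Toll-like receptors are membrane proteins that bind microbial products and start inflammatory signalling. At the cell surface, the proteins of Tlr2 and Tlr1 pair to bind bacterial lipopeptides, that of Tlr4 binds lipopolysaccharide handed over by Cd14, and that of Tlr5 binds flagellin. In endosomes, the proteins of Tlr3, Tlr7 and Tlr9 bind double-stranded RNA, single-stranded RNA and unmethylated CpG DNA. Myd88 encodes the adaptor of every receptor named here except Tlr3, and Ticam1, also known as Trif, encodes the adaptor of Tlr3 and, from endosomes, of Tlr4. In the gut these receptors are found on macrophages, neutrophils and other immune cells, on stroma and, for some of them, on the epithelium.

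Several libraries stood apart, and this bears on every result below. Total counts were between 8813622 and 12308537 in 7 libraries and 1163147 in Ex 2, where ribosomal Rn45s took 53.5% of counts and the 10 genes together had 1 count. The floor of 3 counts in Ex 2 corresponds to 4.47 CPM (counts scaled to library size with TMM factors), against 0.199 to 0.412 CPM in the other 7 libraries, so for the 10 genes the Ex levels come from Ex 1 alone, while Ex 2 enters the fits at or near 0. A low place of Ex 2 is thus not a second replicate that goes with Ex 1. In ExDSS 1 and NC 2, 8 pancreatic acinar genes took 16.9% and 7.77% of counts, against 0.0538% or less elsewhere. Genes with at least 1 count numbered 9825 and 11874 in ExDSS, 16374 and 8760 in Ex, 16787 and 16790 in PC, and 16123 and 12683 in NC. Both ExDSS libraries and NC 2 thus detected fewer genes than PC at similar total counts. The part of this in zeros and low levels of single genes there was not tested. The replicates of a group were correlated over log2 CPM at r = 0.712 for ExDSS, 0.549 for Ex, 0.978 for PC and 0.825 for NC, and PC 2 and Ex 1 at 0.974. Epithelial markers were present throughout: all 8 were detected in all 8 libraries. They summed to 3911 to 6917 CPM in 7 libraries and to 59.6 CPM, from 40 counts, in Ex 2.

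The summed neutrophil markers, 7 of 8 of which are in the table, were not ordered as DSS treatment would usually order them, since neutrophils enter the gut in DSS colitis. They reached 2974 and 1894 CPM in the libraries labelled ExDSS, 6.85 and 5.96 CPM in those labelled Ex, 8.88 and 8.09 CPM in those labelled PC, and 2355 and 2170 CPM in those labelled NC. Directions are therefore those of the libraries as labelled. Whether the labels PC and NC were exchanged was not tested; an exchange would turn the sign of the difference between these groups, set ExDSS and Ex against other libraries than those used here, and change the interaction, so that both DSS effects of Tlr2, Tlr3, Tlr4 and Myd88 would have the same sign. In bulk tissue, fewer cells of a type and less RNA per cell cannot be told apart.

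The windows upstream of the start site are shown for Tlr2, Tlr3, Myd88 and Tlr1, whose levels carry the patterns described below. RefSeq promoters (GRCm38.p6) were found for 7 of the 10 genes, all but Tlr4, Tlr7 and Cd14. They were searched on both strands for 5 motifs in the 250 bases before the start site: kappaB (GGGA, any 4 bases, CC), the interferon-stimulated response element ISRE (GAAA, any 2 bases, GAAA), PU.1 (GAGGAA), AP-1 (TGANTCA) and GAS (TTCNNNGAA). Capitals mark the matches, and positions are those of a match's first base on the gene's strand, counted back from the start site. The Tlr2 window is chr3:83841609-83841858 on the minus strand, with a kappaB match at -172 that reads the same on both strands. The Tlr3 window is chr8:45410381-45410630 on the minus strand, with kappaB matches at -211 and -23, on opposite strands. The Myd88 window is chr9:119340019-119340268 on the minus strand, where a GAS match at -46 overlaps an ISRE match at -40. The Tlr1 window is chr5:64933559-64933808 on the minus strand, with a PU.1 match at -23.
Tlr2: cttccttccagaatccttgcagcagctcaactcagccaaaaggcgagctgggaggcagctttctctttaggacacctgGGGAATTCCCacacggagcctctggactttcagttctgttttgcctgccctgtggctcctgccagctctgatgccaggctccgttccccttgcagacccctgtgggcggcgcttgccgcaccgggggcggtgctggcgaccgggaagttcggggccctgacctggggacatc
Tlr3: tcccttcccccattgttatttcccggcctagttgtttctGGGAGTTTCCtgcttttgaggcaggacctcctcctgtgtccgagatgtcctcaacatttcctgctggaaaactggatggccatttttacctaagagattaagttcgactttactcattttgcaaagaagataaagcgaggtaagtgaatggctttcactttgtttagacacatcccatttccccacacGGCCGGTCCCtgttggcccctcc
Myd88: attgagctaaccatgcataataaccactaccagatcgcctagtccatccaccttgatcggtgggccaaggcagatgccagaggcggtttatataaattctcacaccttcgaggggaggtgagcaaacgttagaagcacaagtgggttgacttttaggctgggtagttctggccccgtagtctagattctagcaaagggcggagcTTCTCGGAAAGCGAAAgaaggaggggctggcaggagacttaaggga
Tlr1: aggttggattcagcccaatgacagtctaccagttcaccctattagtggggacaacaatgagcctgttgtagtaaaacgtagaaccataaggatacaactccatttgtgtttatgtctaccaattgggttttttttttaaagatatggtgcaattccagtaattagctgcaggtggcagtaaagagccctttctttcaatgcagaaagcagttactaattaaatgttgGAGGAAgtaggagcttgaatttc
Of the promoters not shown, Tlr5 held a kappaB match, Tlr9 a PU.1 and an AP-1 match, and Ticam1 a PU.1 match. Over all 32851 RefSeq promoter windows, 17.6% held kappaB, 2.98% ISRE, 23.3% PU.1, 6.75% AP-1 and 7.02% GAS. A match is a match of letters and was not read as a binding site. The RefSeq start site less the 5' end of the table's line is -159 bases for Tlr3 and -22 bases for Myd88, inside the gene on the minus strand. The RefSeq genes themselves begin farther upstream, at 83841824 for Tlr2, 64933600 for Tlr1 and 45411075 for Tlr3. The kappaB match of Tlr2, the PU.1 match of Tlr1 and the whole Tlr3 window thus lie inside these RefSeq genes. Of the 2 RefSeq windows of Tlr1, the one at the 5' end of the table's line was used.

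Tlr2 (chr3:83836272-83841608, minus strand, GRCm38) was, among the 10 genes, the receptor with the widest gap between groups. Its level was 47.2 and 39.1 CPM in ExDSS, 6.03 and 0 CPM in Ex, 4.66 and 4.63 CPM in PC, and 24.5 and 48.95 CPM in NC. The ExDSS and NC libraries were all high, and both PC libraries and Ex 1 were low, with no overlap (Ex 2 was near-empty). Behind these levels stand 344 and 466 counts in ExDSS, 59 and 0 in Ex, 64 and 59 in PC, and 369 and 513 in NC. The fitted log2 fold change was 3.21 for ExDSS minus PC (SE 1.67, edgeR quasi-likelihood adjusted p = 0.309) and -2.98 for PC minus NC (SE 1.66, adjusted p = 1.00). Neither passed the threshold of 0.05, and the spread fitted over all genes was wide, with a common dispersion of 1.17.

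Tlr1 (chr5:64924680-64933558, minus strand), whose protein pairs with that of Tlr2, had the opposite order. It stood at 8.79 and 8.55 CPM in ExDSS, 17.2 and 0 CPM in Ex, 15.1 and 16.3 CPM in PC, and 11.7 and 4.87 CPM in NC. Both PC libraries lay above the 4 libraries of ExDSS and NC, and Ex 1 was higher still. The log2 fold change was -0.86 for ExDSS minus PC (adjusted p = 0.904) and 0.92 for PC minus NC (adjusted p = 1.00), both short of the threshold.

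Within a library, the ratio of Tlr2 to Tlr1 counts does not depend on scaling. It was 5.38 (exact 95% interval 4.11 to 7.13) and 4.57 (3.68 to 5.72) in ExDSS, 0.351 (0.256 to 0.475) in Ex 1, and close to that in PC at 0.308 and 0.284. In NC it was 2.08 and 10.1. All 4 libraries of ExDSS and NC thus had more Tlr2 than Tlr1 counts, and the other 3 with counts had fewer. These intervals cover counting error only, and 2 libraries against 2 cannot go below p = 0.333 in an exact permutation test, so no test of the ratios is given.

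**Figure D1:**
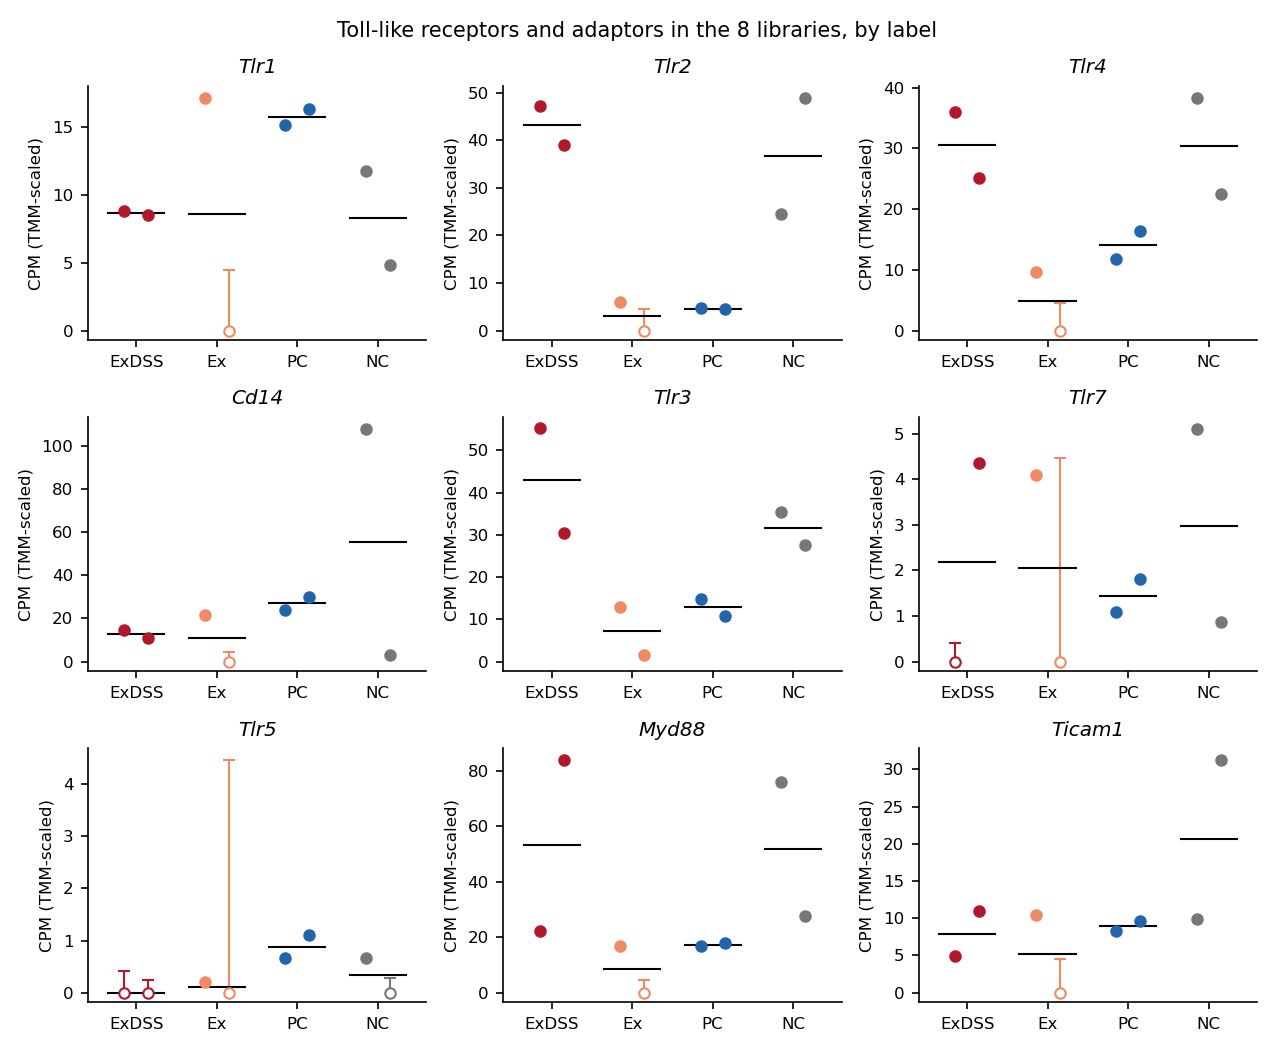
Level of 9 genes (all but Tlr9, at 0 throughout) in every library, in TMM-scaled CPM on linear axes, with ExDSS, Ex, PC and NC from left to right; each point is 1 library, the line is the group mean, and an open point is a library with 0 counts, whose bar reaches the level of 3 counts. Tlr2, Tlr3, Tlr4 and Myd88 were higher in both ExDSS libraries than in both PC libraries (for Myd88 not when scaled by total counts alone), and Tlr1 lower.

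Tlr4 (chr4:66827811-66842796, plus strand), the lipopolysaccharide receptor, followed the order of Tlr2 with a smaller gap. Its level was 36.0 and 25.1 CPM in ExDSS, 9.71 and 0 CPM in Ex, 11.8 and 16.3 CPM in PC, and 38.4 and 22.5 CPM in NC. Again all 4 libraries of ExDSS and NC lay above both PC libraries and Ex 1, though scaled by total counts alone PC 2 (19.98 CPM) passed NC 2 (19.2 CPM). The log2 fold change was 1.12 for ExDSS minus PC (adjusted p = 0.833) and -1.11 for PC minus NC (adjusted p = 1.00). RefSeq places the 3' end of Tlr4 3785 bases beyond the end of the table's line, which matters for reads from the 3' end of transcripts; the effect on its counts was not tested.

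Cd14 (chr18:36725064-36726815, minus strand), the co-receptor that hands lipopolysaccharide to Tlr4, did not follow Tlr4. It had 14.4 and 10.7 CPM in ExDSS, 21.5 and 0 CPM in Ex, 23.9 and 30.1 CPM in PC, and 108 and 3.05 CPM in NC. The NC libraries held both the highest level and, apart from Ex 2, the lowest, at 1624 and 32 counts, so PC and NC overlapped. Both ExDSS libraries lay below both PC libraries, with a log2 fold change of -1.10 (adjusted p = 0.847). The sign of the PC minus NC difference, -1.04 with both NC libraries, rests on NC 1: without that library it was 3.15 (adjusted p = 0.792).

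The ratio of Cd14 to Tlr4 counts was 0.401 (exact 95% interval 0.316 to 0.504) and 0.428 (0.345 to 0.528) in ExDSS. It was 2.21 in Ex 1, and 2.02 (1.67 to 2.46) and 1.84 (1.55 to 2.19) in PC. NC held both ends, 2.81 in NC 1 and 0.136 in NC 2. The ExDSS libraries had nearly the same ratio, and so had the PC libraries, while the NC libraries did not. Acinar content differed within ExDSS and within NC, and its part in the ratio was not tested.

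Tlr5 (chr1:182954788-182976044, plus strand), the flagellin receptor, was near the floor and was not tested. It had 0 and 0 counts in ExDSS, 2 and 0 in Ex, 9 and 14 in PC, and 10 and 0 in NC. Its mean of 0.877 CPM in PC was 2.64 times the mean ExDSS floor of 3 counts per library. The floor covers counting error in ExDSS only, and the PC mean was taken as exact. The ratio is therefore not a lower limit of the difference. Both ExDSS libraries also detected fewer genes than PC, and the part of this in the zeros of Tlr5 was not tested. NC, with 10 counts in 1 library and 0 in the other, shows how far 2 libraries of a group could differ.

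Of the endosomal receptors among the 10 genes, Tlr3 (chr8:45395665-45410539, minus strand) had the clearest order. Its level was 55.2 and 30.5 CPM in ExDSS, 13.0 and 1.49 CPM in Ex, 14.9 and 10.8 CPM in PC, and 35.4 and 27.7 CPM in NC. As for Tlr2 and Tlr4, all 4 libraries of ExDSS and NC were above both PC libraries and Ex 1. The log2 fold change was 1.73 for ExDSS minus PC (adjusted p = 0.655) and -1.29 for PC minus NC (adjusted p = 1.00). The gene model Gm45542 overlaps Tlr3 on the opposite strand in the GRCm38 annotation, and without stated strand in the counting, reads of both cannot be told apart.

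Tlr7 (chrX:167304926-167330571, minus strand) varied within groups more than between them. It had 0 and 4.36 CPM in ExDSS, 4.09 and 0 CPM in Ex, 1.09 and 1.81 CPM in PC, and 5.11 and 0.859 CPM in NC. The groups overlapped in all 4 pairs compared, and its largest log2 fold change was -1.04 (PC minus NC, adjusted p = 1.00). RefSeq places the 3' end of Tlr7 1546 bases beyond the end of the table's line, with the same limit as for Tlr4. Tlr9 (chr9:106222598-106226876, plus strand) had 0 counts in all 8 libraries, which allows up to 0.199 to 0.412 CPM in 7 of them and up to 4.47 CPM in Ex 2. Tlr9 is best known from B cells and plasmacytoid dendritic cells. Of the B and plasma cell markers, 6 of 7 were detected in NC 1, PC 1, PC 2, Ex 1 and ExDSS 2, 5 in NC 2, 4 in ExDSS 1 and 1 in Ex 2, and Pax5 was at 0 in all 8. Of the plasmacytoid dendritic cell markers, Siglech and Ccr9 were at 0 in both ExDSS libraries, Ex 2 and NC 2 and were detected in the other 4. The sums of these lists were 793 and 1448 CPM, and 247 and 215 CPM, in ExDSS, against 730 and 725 CPM, and 220 and 251 CPM, in PC.

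The adaptors differed from each other. Myd88 (chr9:119335988-119340040, minus strand), which links most Toll-like receptors to NF-kappaB, had 22.2 and 84.1 CPM in ExDSS, 17.0 and 0 CPM in Ex, 16.7 and 18.1 CPM in PC, and 76.0 and 27.7 CPM in NC. All 4 libraries of ExDSS and NC lay above both PC libraries and Ex 1, but the ExDSS libraries, and the NC libraries, differed widely from each other. Scaled by total counts alone, ExDSS 1 (16.8 CPM) lay below both PC libraries (22.5 and 22.1 CPM). The log2 fold change was 1.61 for ExDSS minus PC (adjusted p = 0.701), and 0.34 without ExDSS 2 (adjusted p = 0.915). For PC minus NC it was -1.58 (adjusted p = 1.00), and -0.66 without NC 1 (adjusted p = 0.99). Slc22a14, on the same strand, and Acaa1a, on the other, overlap Myd88 in the GRCm38 annotation.

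Ticam1 (chr17:56269462-56276767, minus strand), the adaptor of Tlr3, had 4.94 and 10.9 CPM in ExDSS, 10.4 and 0 CPM in Ex, 8.23 and 9.58 CPM in PC, and 9.96 and 31.3 CPM in NC. ExDSS and PC overlapped, and the log2 fold change between them was -0.17 (adjusted p = 0.987). NC 2 stood above the other 7 libraries. PC lay just below NC, with a log2 fold change of -1.21 (adjusted p = 1.00), which rests on NC 2: without that library it was -0.16.

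Myd88 and Ticam1 thus kept no constant proportion. Their count ratio was 4.50 (exact 95% interval 3.12 to 6.65) and 7.72 (6.42 to 9.33) in ExDSS, 1.63 (1.26 to 2.10) in Ex 1, and 2.03 (1.61 to 2.56) and 1.89 (1.51 to 2.37) in PC. In NC the libraries disagreed, at 7.63 in NC 1 and 0.884 in NC 2. Both ExDSS libraries had a higher ratio than both PC libraries, with intervals that did not meet. The intervals cover counting error within a library only. Those of NC 1 (6.43 to 9.11) and NC 2 (0.752 to 1.04), libraries of the same group, did not meet either. The ratio of Tlr3 to Ticam1, a receptor and its adaptor, was 11.2 and 2.80 in ExDSS, 1.25 in Ex 1, 1.81 and 1.13 in PC, and 3.56 and 0.884 in NC.

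**Figure D2:**
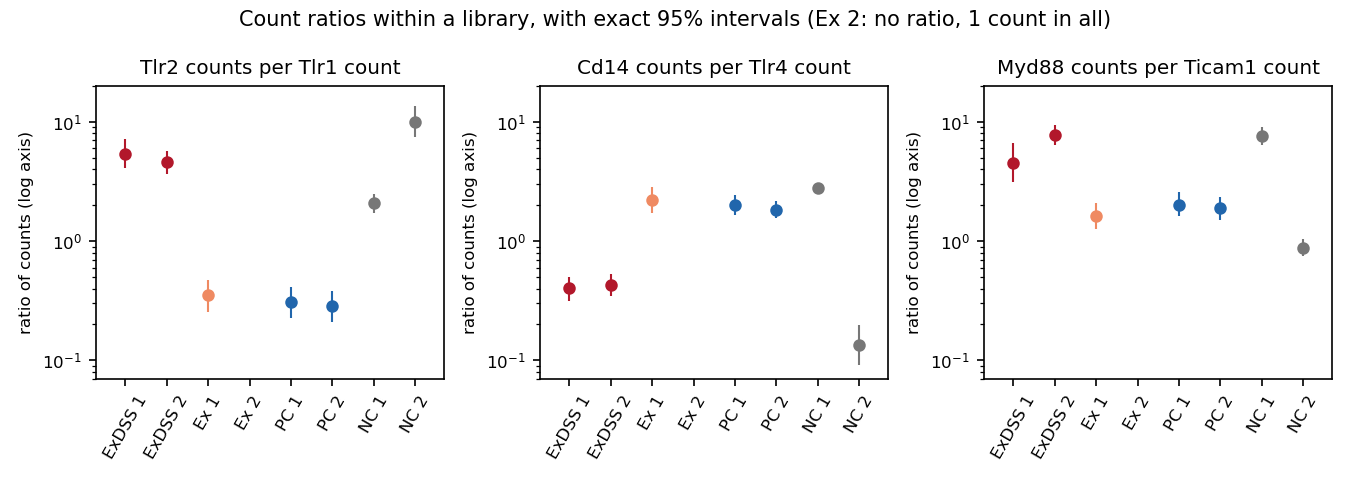
Ratios of the counts of paired genes within each library on a logarithmic axis, with exact 95% intervals that cover counting error; Ex 2 has no ratio. The ratio of Tlr2 to Tlr1 was 5.38 and 4.57 in ExDSS against 0.308 and 0.284 in PC, and that of Cd14 to Tlr4 was 0.401 and 0.428 in ExDSS against 2.02 and 1.84 in PC.

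After DSS alone, compared with buffer alone, 7 of the 8 tested genes had lower fitted levels, and none passed the test. Tlr5 and Tlr9 had too few counts to be tested. In both PC libraries, Tlr2, Tlr3, Tlr4, Myd88 and Ticam1 lay below both NC libraries, and Tlr1 lay above both. Of all 14567 genes tested, 23.6% lay lower without overlap and 31% higher. The median log2 fold change of the 8 genes was -1.16, against 0.10 over all genes, with a range of -2.98 for Tlr2 to 0.92 for Tlr1. At an adjusted p under 0.05, 0% of all genes were called; at an unadjusted p under 0.05, 2.49% of all genes and 0 of the 8 passed. DESeq2 and limma voom called 0 of the 8 in each of the 4 comparisons between groups.

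After exosomes and DSS, compared with DSS alone, Tlr2, Tlr3, Tlr4 and Myd88 lay higher in both ExDSS libraries and Tlr1 and Cd14 lay lower, and none passed the test. The share of all genes without overlap was 18.9% higher and 45.4% lower. The median log2 fold change of the 8 genes was 0.86, against -0.51 over all genes. Again 0% of all genes were called after adjustment, and 19% of all genes and 0 of the 8 at an unadjusted p. These comparisons share the PC libraries: for Tlr2 they gave 3.21 and -2.98, for Tlr3 1.73 and -1.29, for Tlr4 1.12 and -1.11, for Myd88 1.61 and -1.58, and for Tlr1 -0.86 and 0.92, each time for ExDSS minus PC first and PC minus NC second.

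With exosomes alone, compared with buffer alone, Tlr2, Tlr3, Tlr4 and Myd88 lay lower in Ex 1 than in both NC libraries. They lay lower in Ex 2 too and no gene of the 8 lay higher in both Ex libraries, but the near-empty Ex 2 fixed these outcomes. Of all genes, 22.9% were lower and 11.1% higher without overlap. The log2 fold changes, -3.39, -2.03, -2.50 and -2.50, rest partly on the empty Ex 2; without it they were -2.57, -1.25, -1.61 and -1.58. The call rates were 0% after adjustment and 5.31% before it, with 0 of the 8 genes in either. Without Ex 1, which leaves only the near-empty Ex 2, Tlr2 passed (adjusted p = 0.0412), 1 of 9 tested, beside 1596 of 15406 genes in that fit. The median of the 8 was -2.16, against -0.27 over all genes.

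In exosome-treated mice, DSS was compared with no DSS. Of all genes, 17% lay higher in ExDSS than in both Ex libraries without overlap, and 17% lower. In both ExDSS libraries the same 4 genes lay above Ex 1 and above the near-empty Ex 2. Their log2 fold changes were 3.62 for Tlr2 (SE 1.72, adjusted p = 0.248), 2.47 for Tlr3, 2.50 for Tlr4 and 2.54 for Myd88, and 2.88, 1.77, 1.69 and 1.66 without Ex 2. After adjustment 0% of all genes were called. Without Ex 1, Tlr2, Tlr4 and Myd88 passed (adjusted p = 0.0346, 0.0452 and 0.0465), 3 of 9 tested, beside 1883 of 15406 genes in that fit. At an unadjusted p, 19.8% of all genes passed, and among the 8 genes only Tlr2. The median was 1.48 over the 8 genes and -0.29 over all genes.

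**Figure D3:**
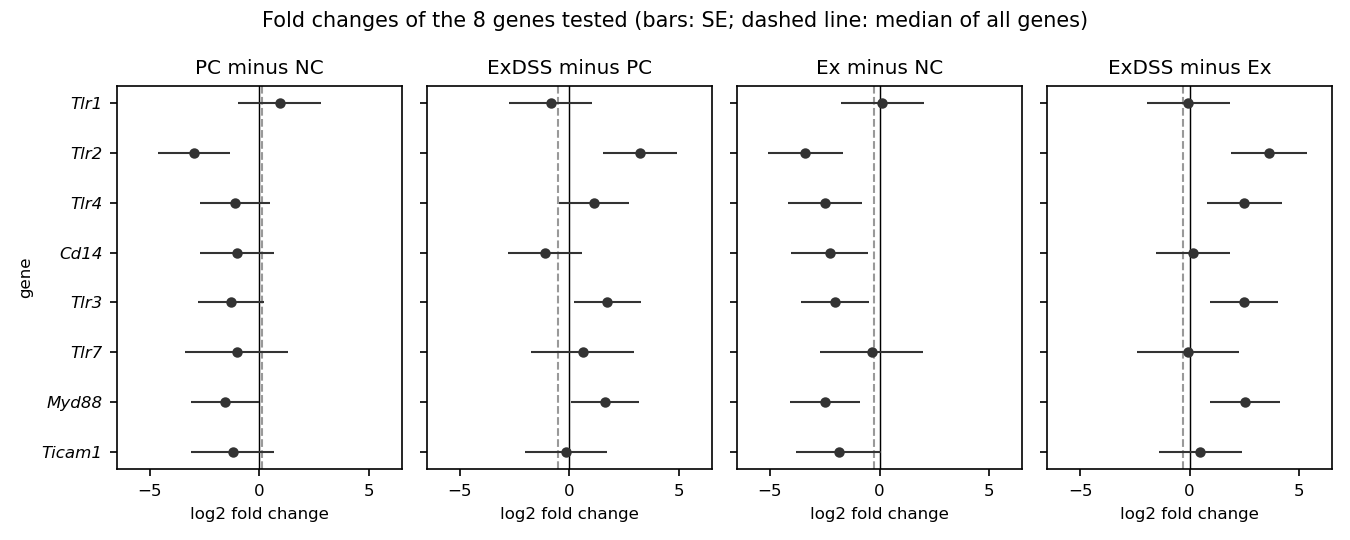
Log2 fold changes of the 8 tested genes in the 4 comparisons between groups, with bars of 1 SE derived from the F statistic on either side; the dashed line is the median of all genes. Tlr2 lay farthest from 0 in each comparison, at 3.21 for ExDSS minus PC and -2.98 for PC minus NC, and no gene passed an adjusted p of 0.05.

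The difference between these DSS effects, ExDSS minus Ex less PC minus NC, was tested in the same fit. It was 6.60 for Tlr2 (SE 2.39, adjusted p = 0.189), 3.76 for Tlr3 (adjusted p = 0.349), 3.62 for Tlr4 (adjusted p = 0.416) and 4.11 for Myd88 (adjusted p = 0.315). None of the 8 passed in edgeR, where 0.288% of all genes did, and none in limma voom. In DESeq2 1 of the 8, Tlr2, passed, as did 1593 of all 14567 genes. At an unadjusted p in edgeR, 18.8% of all genes and only Tlr2 of the 8 passed. Without Ex 2 the values were 5.80, 3.00, 2.75 and 3.18. Without Ex 1, Ex 2 alone stood for its group, and Tlr2, Tlr4 and Myd88 passed (adjusted p = 0.0228, 0.0428 and 0.0392), 3 of 9 tested, beside 1663 of 15406 genes; these fits set the other groups against a library with 0 counts of these 3 genes. The median of the 8 was 2.66, against -0.58 over all genes.

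Other genes of the pathway were taken as lists by role. Of 5 other Toll-like receptors, 3 were tested. Tlr13, which binds bacterial ribosomal RNA in mice, had 38.9 and 37.7 CPM in ExDSS, 1.74 and 0 CPM in Ex, 1.16 and 2.12 CPM in PC, and 11.8 and 40.5 CPM in NC. The groups were ordered as for Tlr2, with log2 fold changes of 4.53 for ExDSS minus PC (adjusted p = 0.228) and -3.98 for PC minus NC (adjusted p = 1.00). Tlr12, a receptor for profilin of parasites in mice, had 0 and 14.5 CPM in ExDSS, 1.02 and 1.49 CPM in Ex, 2.33 and 2.83 CPM in PC, and 12.3 and 13.5 CPM in NC. Tlr6, which like Tlr1 pairs with Tlr2, had at most 1.59 CPM in any library; Tlr8 and Tlr11 had too few counts to be tested. The 3 tested receptors had a median log2 fold change of 1.49 for ExDSS minus PC and -2.32 for PC minus NC.

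Among the 8 receptor partners and chaperones, Lbp, which carries lipopolysaccharide to Cd14, had 28.1 and 69.5 CPM in ExDSS, 3.99 and 0 CPM in Ex, 2.11 and 2.12 CPM in PC, and 34.9 and 37.6 CPM in NC. ExDSS and NC lay far above PC, with log2 fold changes of 4.52 for ExDSS minus PC (adjusted p = 0.228) and -4.09 for PC minus NC (adjusted p = 1.00). Ly96, the subunit with which Tlr4 binds lipopolysaccharide, had 50.5 and 15.1 CPM in ExDSS, 18.6 and 0 CPM in Ex, 12.5 and 13.4 CPM in PC, and 26.7 and 49.6 CPM in NC. Both ExDSS and both NC libraries lay above PC, but ExDSS 2 lay below Ex 1. Unc93b1, which carries endosomal receptors to their compartment, had 0.137 and 15.01 CPM in ExDSS, 20.2 and 1.49 CPM in Ex, 23.3 and 24.7 CPM in PC, and 14.1 and 0.286 CPM in NC. It was lowest in ExDSS 1 and NC 2, the libraries with acinar reads, and highest in PC.

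The chaperones of the receptors split. Hsp90b1 had 121 and 126 CPM in ExDSS, 490 and 5724 CPM in Ex, 688 and 615 CPM in PC, and 379 and 93.0 CPM in NC. Cnpy3 had 91.2 and 64.1 CPM in ExDSS, 30.8 and 13.4 CPM in Ex, 32.1 and 32.8 CPM in PC, and 51.4 and 100 CPM in NC. Hsp90b1 was thus lower and Cnpy3 higher in ExDSS than in PC, neither past the test. The median of the list was 0.61 for ExDSS minus PC, with 4 of 8 genes positive, and -0.89 for PC minus NC, with 2 of 8 positive.

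**Figure D4:**
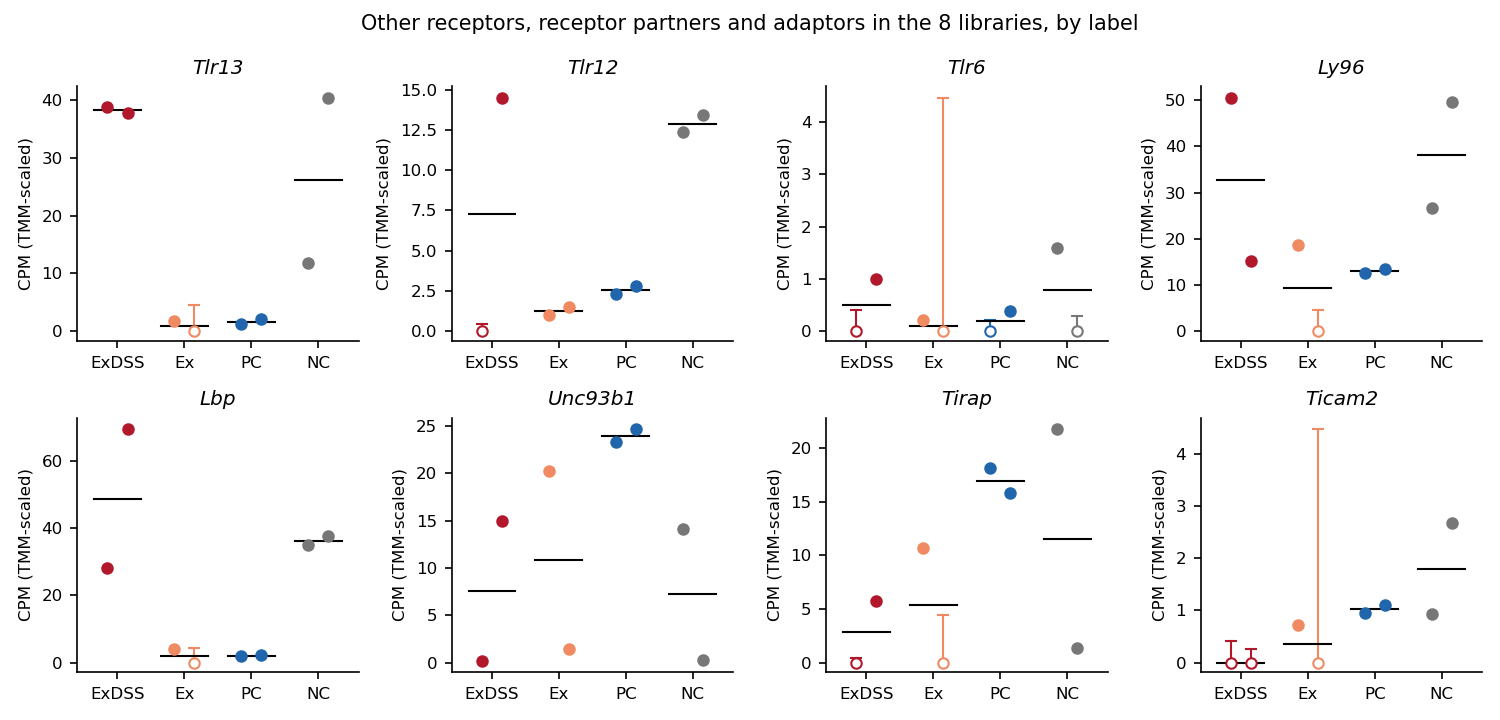
Levels of partner genes in every library, in TMM-scaled CPM, on linear axes, with ExDSS, Ex, PC and NC from left to right; each point is 1 library, the line is the group mean, and an open point is a library with 0 counts, whose bar reaches the level of 3 counts. Lbp and Tlr13 stood at 28.1 to 69.5 and 37.7 to 38.9 CPM in ExDSS, against 2.11 to 2.12 and 1.16 to 2.12 CPM in PC.

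Of the 4 other adaptors with a TIR domain, 2 were tested. Tirap, which brings Myd88 to Tlr2 and Tlr4, had 0 and 5.70 CPM in ExDSS, 10.7 and 0 CPM in Ex, 18.1 and 15.8 CPM in PC, and 21.8 and 1.34 CPM in NC. Ticam2, which brings Ticam1 to Tlr4, had 0 and 0 CPM in ExDSS, 0.716 and 0 CPM in Ex, 0.946 and 1.10 CPM in PC, and 0.929 and 2.67 CPM in NC. Both bridging adaptors were lower in both ExDSS libraries than in both PC libraries, as were 45.4% of all genes, and neither passed the test. PC and NC overlapped for both. Their median log2 fold change for ExDSS minus PC was -2.09 with Ticam2 at its floor limit.

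Downstream of the receptors, the 16 kinases and ubiquitin ligases had a median log2 fold change of -0.54 for ExDSS minus PC and -0.01 for PC minus NC, near the -0.51 and 0.10 of all genes. Irak1, the kinase recruited by Myd88, had 42.3 and 34.1 CPM in ExDSS, against 39.6 and 39.2 CPM in PC. Tab2, a scaffold of the kinase Map3k7, had 5.22 and 12.4 CPM in ExDSS, against 80.3 and 74.3 CPM in PC, and its log2 fold change of -3.13 did not pass (adjusted p = 0.247). The 10 transcription factors had medians of -0.09 and -0.46. Among them, Nfkb2 had 427 and 156 CPM in ExDSS, 41.9 and 0 CPM in Ex, 31.7 and 37.3 CPM in PC, and 83.3 and 528 CPM in NC, the order of Tlr2 again. Jun had 50.5 and 23.6 CPM in ExDSS, against 69.8 and 59.0 CPM in PC. Its mean over all 8 libraries, by which it is named, drew on 608 CPM in the near-empty Ex 2. Irf7, next by that mean, had 202 and 170 CPM in ExDSS and 25.9 and 19.3 CPM in PC. Of the 10 transcription factors, 2 lay higher and 3 lower in ExDSS than in PC without overlap, against 18.9% and 45.4% of all genes.

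The 11 inhibitors had medians of -1.27 for ExDSS minus PC and -0.45 for PC minus NC. Nfkbia, which holds NF-kappaB in the cytoplasm, overlapped between ExDSS, at 117 and 293 CPM, and PC, at 219 and 234 CPM. Socs3, an inhibitor of cytokine signalling, overlapped as well, at 4.53 and 41.4 CPM in ExDSS and 13.1 and 10.8 CPM in PC. Its mean over all 8 libraries, by which it is named, drew on 134 CPM in the near-empty Ex 2. Cyld, next by that mean, had 59.9 and 123 CPM in ExDSS and 35.2 and 25.8 CPM in PC. Of the 11 inhibitors, 2 lay higher and 6 lower in ExDSS than in PC without overlap. The shares of all genes were 18.9% and 45.4%.

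The target genes, cytokines, chemokines and enzymes switched on by these receptors, separated most. Of 18, 15 were tested, with a median log2 fold change of 5.69 for ExDSS minus PC and -5.73 for PC minus NC. None passed in these comparisons. Of the 15, 10 lay higher in ExDSS than in PC without overlap, and 2, Ptgs2 and Il12b, lay lower. The shares of all genes were 18.9% higher and 45.4% lower. In the interaction 4 of 15 were higher and passed: Il1b (15.38, adjusted p = 0.0092), Cxcl10 (16.68, adjusted p = 0.0092), Lcn2 (12.02, adjusted p = 0.0151) and Irg1 (adjusted p = 0.0475), the last with 0 counts in Ex 1 and both PC libraries. Of all genes tested, 0.288% passed in the interaction. Il1b, a cytokine made by macrophages and neutrophils, had 764 and 463 CPM in ExDSS, 1.84 and 5.96 CPM in Ex, 2.98 and 1.81 CPM in PC, and 734 and 437 CPM in NC. Cxcl10, a chemokine induced by interferons, had 564 and 33.6 CPM in ExDSS, 0.614 and 1.49 CPM in Ex, 1.16 and 0.628 CPM in PC, and 318 and 224 CPM in NC. These genes were high and low in the same libraries as Tlr2. No interaction call of the whole table remained without NC 1 or without NC 2, where 0 genes passed.

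**Figure D5:**
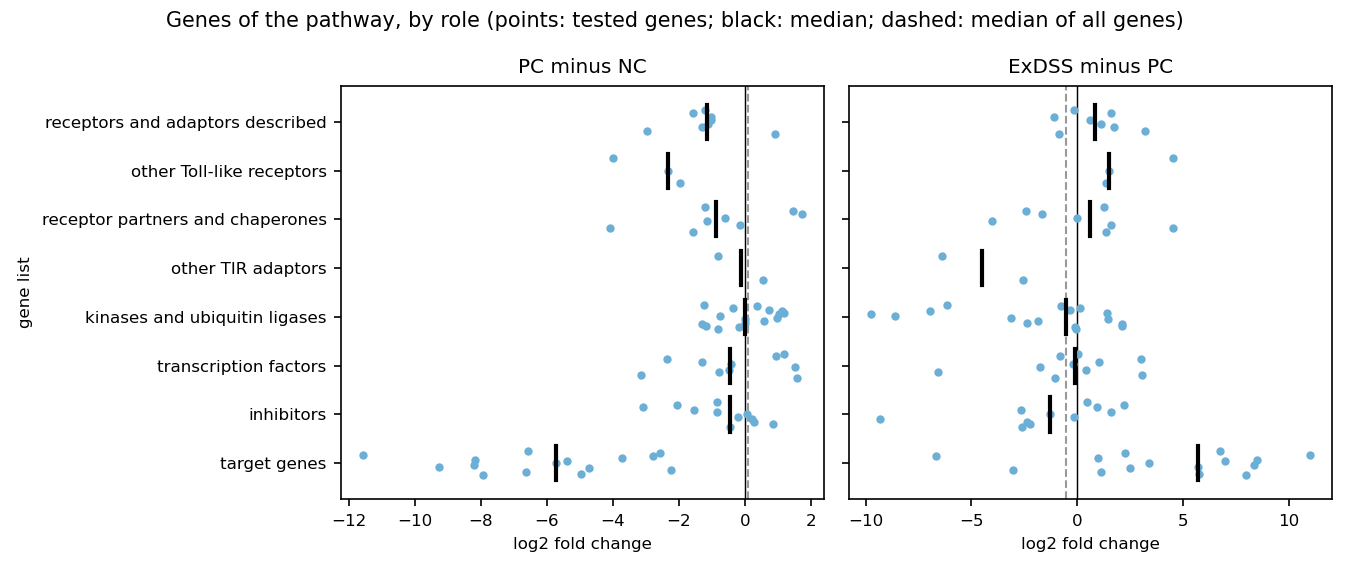
Log2 fold changes of the tested genes of each list (points) and their median (black bar) for PC minus NC and ExDSS minus PC; the dashed line is the median of all genes, and medians are fitted values, with genes at 0 in a group not set to their floor limit. The target genes lay at 5.69 for ExDSS minus PC and -5.73 for PC minus NC, and the kinases and ligases near the median of all genes.

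Markers of cells that carry these receptors differed between the groups beside the genes themselves. The 8 macrophage markers summed to 2413 and 3224 CPM in ExDSS, 239 and 17.9 CPM in Ex, 187 and 253 CPM in PC, and 834 and 2552 CPM in NC. All 4 libraries of ExDSS and NC lay above both PC libraries, Ex 1 and the near-empty Ex 2, as they did for the neutrophil sum and for Tlr2, Tlr3, Tlr4 and Myd88. The endothelial and stromal sum split the same way, at 2729 and 2827 CPM in ExDSS, 2281 and 49.2 CPM in Ex, 1245 and 1801 CPM in PC, and 3760 and 2826 CPM in NC. So did the T cell sum, at 14.0 and 55.7 CPM in ExDSS, 7.87 and 0 CPM in Ex, 10.05 and 11.5 CPM in PC, and 24.4 and 41.0 CPM in NC. Scaled by total counts alone, the splits of the stromal and T cell sums did not hold. The stromal sums of ExDSS 1 and NC 2 then lay below that of Ex 1. The T cell sum of ExDSS 1 lay below those of both PC libraries. All 7 T cell markers in the table were at 0 in Ex 2, and Cd3e, Lck, Cd8a and Cd4 in ExDSS 1. All 8 macrophage markers were detected in ExDSS 1, Ex 1 and both PC libraries, and only Mertk was at 0 in ExDSS 2 and both NC libraries; C1qb, Adgre1 and Mertk were at 0 in Ex 2. Of the 7 neutrophil markers in the table, Csf3r was at 0 in both ExDSS libraries, both Ex libraries and PC 2. Ngp was at 0 in ExDSS 2, PC 2 and both Ex libraries, and Mmp8 in both Ex libraries. In Ex 2, 6 of the 7 were at 0. The epithelial sum was 5004 and 4339 CPM in ExDSS, 4533 and 59.6 CPM in Ex, 4250 and 3911 CPM in PC, and 4391 and 6917 CPM in NC, so that it spanned less than a 2-fold range outside Ex 2. The part of these cells in the levels of the receptors was not tested.

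Across the 7 libraries other than Ex 2, and as a description only, log2 CPM of Tlr2 followed that of Tlr3 (Pearson r = 0.91, Spearman rho = 0.71) and ran against that of Tlr1 (r = -0.88, rho = -0.86). Tlr3 and Tlr4 had r = 0.88 (rho = 0.86). The remaining pairs among Tlr2, Tlr3, Tlr4 and Myd88 had a lower r. It was 0.81 for Tlr2 and Tlr4 (rho = 0.54) and 0.60 for Tlr2 and Myd88 (rho = 0.61). For Myd88 it was 0.55 with Tlr3 (rho = 0.61) and 0.67 with Tlr4 (rho = 0.79). These points share the libraries and their scaling, and they fall into the same high and low groups as the marker sums.

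Genes with the most similar pattern were sought among 10020 genes with a mean of at least 5 CPM. Over 8 libraries they were Litaf, Ms4a6b and Lgals3bp for Tlr2 (r of 0.996 or more), Gbp3, Oasl2 and Clec7a for Tlr3, Eid2, Slc38a10 and Cnn2 for Tlr4, and Ebp, Commd6 and Klk1b3 for Tlr1. For Myd88 they were Tmem181c-ps, Il1rn and H2-Aa, for Ticam1 Macc1, Zfp954 and Leprot, and for Cd14 Tmem127, Lap3 and Nadk. These correlations draw on the near-empty Ex 2. Over the other 7 libraries, an alternative chosen after the data were seen, 4 of the 21 genes were found again: Oasl2 and Clec7a for Tlr3, and Macc1 and Zfp954 for Ticam1. Tlr2 was then closest to Ifitm3, Spi1 and Grrp1, and Tlr4 to Ptprc, Elk3 and Pyhin1.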

How the data were processed

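Intestinal RNA of 8 libraries, 2 in each of 4 groups, was measured with the QuantSeq 3' mRNA kit, per the labels' protocols. The values deposited by the authors are whole-number counts, 1 line per gene and 1 column per library; Bowtie2, bedtools, edgeR and mm9 are named in the submitters' processing notes, without versions. Of 22139 lines matched to a GRCm38 annotation by name and chromosome, 99.7% overlapped their GRCm38 gene, and positions are reported in that build. No label states whether strand was used in counting.

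The genes, lists and markers were chosen with earlier results of these data known. Counts were fitted in R 4.3.3 with edgeR 4.0.16 (limma 3.58.1): TMM scaling, filterByExpr with a minimum count of 10 (14567 genes), 1 coefficient per group over all 8 libraries (4 residual degrees of freedom), robust quasi-likelihood F test, and Benjamini-Hochberg adjustment over all genes. SE was derived as |log2 fold change| over the square root of F. Floors use 3 counts per library. Intervals of count ratios are exact (Clopper-Pearson); like the floors, they hold counting error alone. The script was tested on simulated counts. Named list genes are those called, the 2 with the highest mean CPM per list, and partners of the 10 genes. Irf7 and Cyld, next by mean CPM, are given beside Jun and Socs3, whose means drew on Ex 2. The most similar genes are the 3 with the highest Pearson r of log2 CPM (prior count 2), without Gm or Rik names and without antigen receptor segments. Alternatives were other scalings, other filters, DESeq2 1.42.0, limma voom, a replicate block and libraries left out.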

Additional observations from a re-analysis of the deposited data

Results flagged for a closer look

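For 4 genes, by the labels as given, the DSS libraries lay higher in exosome-treated mice and lower in buffer-treated mice. In TMM-scaled CPM the groups overlapped in neither comparison. The 4 genes are Tlr2, with an interaction of 6.60 on the log2 scale (edgeR quasi-likelihood adjusted p = 0.189), Tlr3, with 3.76 (adjusted p = 0.349), Tlr4, with 3.62 (adjusted p = 0.416), and Myd88, with 4.11 (adjusted p = 0.315). The test of this difference did not pass for any of them. Of all 14567 genes tested, 17% lay higher in ExDSS than in Ex without overlap, and 23.6% lower in PC than in NC. The share of genes with both was not counted. For the 4 genes, the ExDSS libraries lay above Ex 1 and above the near-empty Ex 2, whose floor is 4.47 CPM, and the PC libraries lay below both NC libraries. Scaled by total counts alone this did not hold for Myd88, at 16.8 CPM in ExDSS 1 against 18.8 CPM in Ex 1, nor for Tlr4, at 19.98 CPM in PC 2 against 19.2 CPM in NC 2. Whether the labels PC and NC were exchanged was not tested; if they were, both DSS effects would have the same sign for all 4 genes.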

How the results depend on the processing

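Of 14567 genes, 0 passed in each of the 4 comparisons and 42 in the interaction, and counts of calls moved widely. In the order PC minus NC, ExDSS minus PC, Ex minus NC, ExDSS minus Ex and interaction, no filter gave 45, 132, 55, 223 and 350 calls, DESeq2 81, 1488, 259, 1986 and 1593, and limma voom 2, 1118, 0, 421 and 92. Leaving out ExDSS 1, Ex 2 and NC 2 together gave 3910, 10719, 3603, 9839 and 9646, with 6, 8, 5, 6 and 7 of the receptors and adaptors among them, 9 of which were tested there (Tlr5 included) out of 15194 genes, but its 1 residual degree of freedom comes from the PC libraries alone. In the interaction, RLE gave 67, total counts 6 and the stricter filter 26. Leaving out 1 library gave 0 to 4, 0 to 6, 0 to 1596, 0 to 1883 and 0 to 1663 calls, the highest of the last 3 without Ex 1, and 0 to 1, 0 to 3 and 0 to 3 of the receptors and adaptors in the last 3 (9 tested without Ex 1); a lone library is assumed to vary like the other groups. Of the 8 genes, DESeq2 called 1 in the interaction, Tlr2. Same-numbered libraries did not deviate together (r of -0.149 to 0.051). This check cannot exclude pairing, since the near-empty Ex 2 and the acinar reads of NC 2 and ExDSS 1 enter the deviations. With a replicate block 0, 41, 0, 28 and 161 genes and 0 of the 8 were called. The cause of these shifts was not tested.

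Tlr2, Tlr3, Tlr4 and Myd88 kept their sign in all 5 contrasts under all 17 alternatives. Signs turned as follows. Cd14: PC minus NC 0.42 (voom) and 0.59 (replicate block), ExDSS minus Ex -0.045 (upper quartile), -0.108 (total counts) and -1.03 (3 libraries out). Tlr1: Ex minus NC -0.0094 (total counts), -1.65 (voom) and -0.28 (block), ExDSS minus Ex 0.026 (RLE), 1.78 (voom) and 0.59 (block), interaction 0.79 (voom). Tlr7: ExDSS minus PC -1.63 (voom), ExDSS minus Ex 0.28 (block) and 0.064 (3 libraries out), interaction -0.81 (voom). Ticam1: ExDSS minus PC 0.26 and Ex minus NC 0.071 (3 libraries out). Leaving out 1 library at a time, Cd14 ranged over -1.99 to 3.15 (PC minus NC), -12.12 to 1.87 (Ex minus NC), -0.73 to 10.05 (ExDSS minus Ex) and -2.90 to 11.04 (interaction); Tlr1 over -9.38 to 1.08, -0.95 to 9.51 and -1.92 to 8.54 in the last 3; Tlr7 over -1.81 to 0.76 (PC minus NC), -6.87 to 1.57 (ExDSS minus PC), -7.91 to 1.43, -7.60 to 7.49 and -6.56 to 8.48; and Ticam1 over -0.86 to 0.28 (ExDSS minus PC) and -0.37 to 9.37 (ExDSS minus Ex). Total counts moved the median of all genes to 0.29 (PC minus NC) and -0.91 (ExDSS minus PC).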
